A study of Homo sapiens with 2 samples.

Results

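The 53 genes described here encode enzymes that use ferrous iron and 2-oxoglutarate to activate molecular oxygen, chosen by gene symbol from a list of the TET enzymes, the Jumonji C (JmjC) proteins, the hypoxia-inducible factor (HIF) hydroxylases, the collagen hydroxylases of the endoplasmic reticulum (ER), the ALKBH and FTO demethylases and a few related hydroxylases. They were 53 of the 46427 genes listed for the series. The study asked how natural killer (NK) cell leukaemia depends on iron, and polyA RNA of NK92, an established human NK cell line, was sequenced without and with PPMX-T003, an antibody against transferrin receptor, the protein that brings transferrin-bound iron into cells. The control was 1 dish of NK92 without antibody and the other group was 1 dish with 10 µg/mL of PPMX-T003 for 6 h. Both dishes came from 1 culture, divided after 18 h of pre-incubation, and the medium held 2% human serum. The headers of the deposited table call the control 0 h and the exposed dish 6 h, whereas the methods have both dishes cultured for the same further 6 h. Were the control harvested at 0 h, the 6 h of culture and the antibody could not be told apart. The control library held 46766416 counts and the PPMX-T003 library 43178462 counts. With 1 library per condition no difference below has a replicate check and no p-value was computed, so each comparison is between these libraries.

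Dioxygenases of this family bind iron in their active site through histidine and acidic residues, split oxygen with 2-oxoglutarate as the co-substrate and release succinate and carbon dioxide. They hydroxylate proline, lysine, asparagine and other residues, and they remove methyl groups from histones, DNA and RNA by hydroxylating the methyl carbon. Their activity is sensitive to the supply of iron and oxygen and to succinate, fumarate and related acids, none of which messenger RNA levels report.

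The identity of the cells was checked first. All 10 NK cell markers examined were expressed, led by NKG7, a cytotoxic granule protein, at a TPM (reads scaled for transcript length and library depth) of 3215 in the control and 3445 in the PPMX-T003 library. GZMB, the granule protease granzyme B, had a TPM of 1850 in the control and 2149 in the exposed library, and its change was 0.27 on the log2 scale. The summed level of these markers was 4250 CPM (counts scaled for library depth) in the control and 4720 CPM in the exposed library. Of 6 T cell markers, CD3E was expressed, with a TPM of 673 and 698, whereas CD3D, CD3G, CD5 and CD8B had 0 counts in both libraries and CD4 had 4 counts in the control and 0 in the exposed library. Of the B cell markers, MS4A1 had 0 counts, CD79A had 14 and 12, and PAX5 had 169 and 78. Among myeloid markers CD68, a lysosomal protein that other cells also make, had 188 and 268 counts, CSF1R had 22 and 9, CD14 had 0 and 7 and LYZ had 2 and 0. The erythroid markers HBA1 and HBB, the collagen genes COL1A1 and COL1A2 and the hepatocyte markers ALB and APOA1 had 0 counts in both libraries, DCN had 13 and 7, and TF had 4 and 4. These B cell markers summed to 3.91 and 2.09 CPM and the myeloid markers to 4.53 and 6.58 CPM, far under the NK cell sum in both libraries.

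The promoters of 5 members are shown because these genes have the largest changes that counting error does not cover, or the highest level of the family: TET3, JMJD1C and KDM7A were lower after exposure, P4HTM was higher, and EGLN2 had the highest TPM. Each window is 300 bases of RefSeq sequence on GRCh38.p14, from 250 bases before to 50 after a listed start, read 5′ to 3′ on the gene's strand. Capitals mark the letters of the core of the HIF binding motif, searched on both strands as ACGTG and GCGTG.
TET3: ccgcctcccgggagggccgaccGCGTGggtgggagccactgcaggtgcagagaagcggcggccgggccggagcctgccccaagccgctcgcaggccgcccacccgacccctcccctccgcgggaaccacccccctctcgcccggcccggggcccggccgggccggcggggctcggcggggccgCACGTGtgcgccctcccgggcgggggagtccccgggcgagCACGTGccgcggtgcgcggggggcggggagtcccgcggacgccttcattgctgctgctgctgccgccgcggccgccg
JMJD1C: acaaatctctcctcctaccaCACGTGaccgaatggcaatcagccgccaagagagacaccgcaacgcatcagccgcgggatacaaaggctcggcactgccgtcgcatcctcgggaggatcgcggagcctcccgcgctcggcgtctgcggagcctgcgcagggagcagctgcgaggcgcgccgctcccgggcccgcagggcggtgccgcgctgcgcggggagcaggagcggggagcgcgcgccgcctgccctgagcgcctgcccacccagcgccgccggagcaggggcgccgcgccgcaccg
KDM7A: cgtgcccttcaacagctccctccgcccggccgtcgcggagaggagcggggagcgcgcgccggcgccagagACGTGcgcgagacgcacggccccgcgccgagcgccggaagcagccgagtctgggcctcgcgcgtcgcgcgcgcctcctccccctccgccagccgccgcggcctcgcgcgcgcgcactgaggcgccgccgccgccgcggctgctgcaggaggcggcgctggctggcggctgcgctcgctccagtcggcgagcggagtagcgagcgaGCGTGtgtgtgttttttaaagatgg
P4HTM: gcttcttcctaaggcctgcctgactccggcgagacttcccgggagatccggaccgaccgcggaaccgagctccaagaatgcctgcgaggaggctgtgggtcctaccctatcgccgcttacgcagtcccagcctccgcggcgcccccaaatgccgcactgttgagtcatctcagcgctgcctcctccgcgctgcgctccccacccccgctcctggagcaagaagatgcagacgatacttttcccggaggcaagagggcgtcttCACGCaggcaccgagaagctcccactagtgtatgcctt
EGLN2: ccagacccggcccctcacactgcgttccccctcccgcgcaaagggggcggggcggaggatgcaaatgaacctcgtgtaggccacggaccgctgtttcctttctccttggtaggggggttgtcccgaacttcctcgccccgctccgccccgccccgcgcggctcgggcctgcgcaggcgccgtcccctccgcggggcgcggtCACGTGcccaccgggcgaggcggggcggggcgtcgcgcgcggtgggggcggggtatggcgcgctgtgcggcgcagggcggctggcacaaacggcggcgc
The TET3 window is chr2:73984660-73984959 on the + strand, the JMJD1C window chr10:63521841-63522140 on the - strand, the KDM7A window chr7:140176934-140177233 on the - strand, the P4HTM window chr3:48989658-48989957 on the + strand and the EGLN2 window chr19:40798941-40799240 on the + strand. TET3 and EGLN2 have 2 windows each and JMJD1C has 3, and the window with the most matches was printed, a choice made after the matches were seen. The TET3 window holds ACGTG 4 times and GCGTG 1 time, counting both strands. KDM7A holds each of them 1 time, JMJD1C and EGLN2 hold ACGTG 2 times, and P4HTM holds GCGTG 1 time on the opposite strand. The longer palindrome CACGTG, the E-box that MYC and USF factors bind, contains ACGTG on both strands and stands 2 times in TET3 and 1 time each in JMJD1C and EGLN2.

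Windows were listed for 49 of the 53 members, and RIOX1, RIOX2, JMJD6 and ASPH had none. Over the 68 windows of these 49 members, ACGTG stood in 15 (22.1%), against 21.4% of all 35116 windows. GCGTG stood in 37 member windows (54.4%), against 36.5% of all windows, and either of the pair in 45 (66.2%), against 48.4%. CACGTG stood in 8 member windows (11.8%), those of EGLN2, HSPBAP1, JMJD1C, KDM4B, KDM4C, KDM6A, TET2 and TET3, against 7.26% of all windows. A match describes letters only, not a bound site, and whether matches go with the direction of a change was not tested.

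Most of the family was expressed in NK92. For levels between genes the deposited TPM was used, which counts reads per transcript length and was rounded to whole numbers by the authors. In the control library 46 of the 53 members had a TPM of at least 1, with a median of 18, beside a median of 19 over the 12981 genes that reached 1. A TPM of at least 50 was reached by 5 members, EGLN2, KDM2A, KDM5C, ALKBH3 and OGFOD1. A further 16 lay from 20 to 49, 21 from 5 to 19, and 4 from 1 to 4, namely KDM4D, P4HTM, PHYH and PLOD2. EGLN2, the highest, lay above 81.1% of the genes with a TPM of at least 1, so the family sits in the middle range of this transcriptome.

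The remaining 7 members were listed at a TPM of 0 in both libraries. EGLN3, KDM5B and TMLHE had 0 counts in both libraries. At these depths a count of 0 allows up to 3 counts, or 0.0641 CPM in the control and 0.0695 CPM in the PPMX-T003 library. P4HA2 had 0 and 2 counts, TET1 had 0 and 6, and ASPH had 4 and 0. TET2 had 63 and 46 counts, because a rounded TPM falls to 0 for a long transcript with few reads. A comparison was made where the libraries together gave 20 counts or more, which left 47 of the 53 members, and 44 of these had at least 200 counts.

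**Figure D1:**
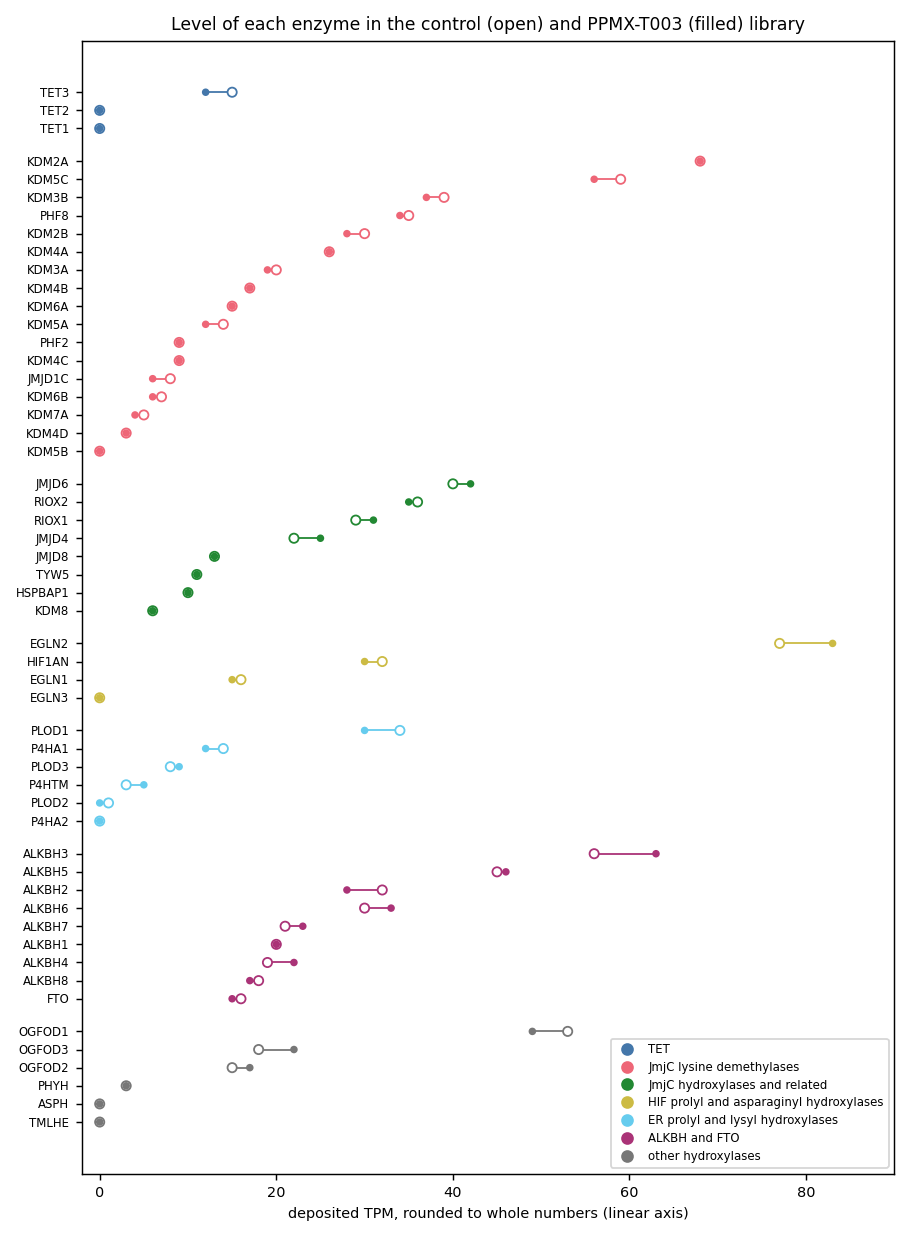
TPM of each of the 53 dioxygenase genes on a linear axis, grouped by role, with open circles for the control library and filled circles for the PPMX-T003 library. EGLN2 is highest at 77 and 83, and 7 members lie at 0 in both libraries.

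The members differed little between the libraries. CPM were scaled by trimmed means of log ratios (TMM, factors of 1.00 and 1.00), and each log2 fold change of the PPMX-T003 library over the control is given with a 95% Clopper-Pearson interval, counting error only. Summed over the 53 genes the level was 2020 CPM in the control and 2020 CPM in the exposed library. No member was at least 2-fold higher and none at least 2-fold lower (0 and 0 of 47), where 1.27% and 1.38% of the 13665 genes with at least 20 counts were. Higher by at least 0.32 on the log2 scale, a smaller step, was 1 member, P4HTM, beside 9.37% of all genes, and lower by at least that much were 2, PLOD2 and TET2, beside 9.48%. With at least 200 counts, P4HTM was the 1 member of 44 higher by this step and no member was lower by it, beside 3.44% and 4.35% of 10419 genes. The members' median log2 fold change was 0.03, or -0.02 with genes that share exons left out, and that of all genes was -0.002. In bulk RNA a change in every cell and a change in the share of cells cannot be told apart.

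Counting error alone was small for these genes, and by that measure more could be told apart. The interval lay above 0 for 15 of the 47 members (31.9%), beside 21.8% of all genes, and below 0 for 6 (12.8%), beside 23.9%. Among genes with at least 200 counts these shares were 34.1% of members beside 25.7% of genes above 0, and 13.6% beside 28.6% below 0. The 15 were PHF8, ALKBH5, RIOX1, JMJD6, EGLN2, ALKBH6, JMJD8, OGFOD2, ALKBH3, JMJD4, OGFOD3, ALKBH7, ALKBH4, PLOD3 and P4HTM, and apart from P4HTM their changes ran from 0.075 to 0.25. The 6 were JMJD1C, KDM7A, TET3, KDM5A, HIF1AN and PLOD1, from -0.29 to -0.12. For the other 26 the interval held 0. How far separate dishes of one condition differ was not measured, so an interval outside 0 says that these libraries differ and no more.

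**Figure D2:**
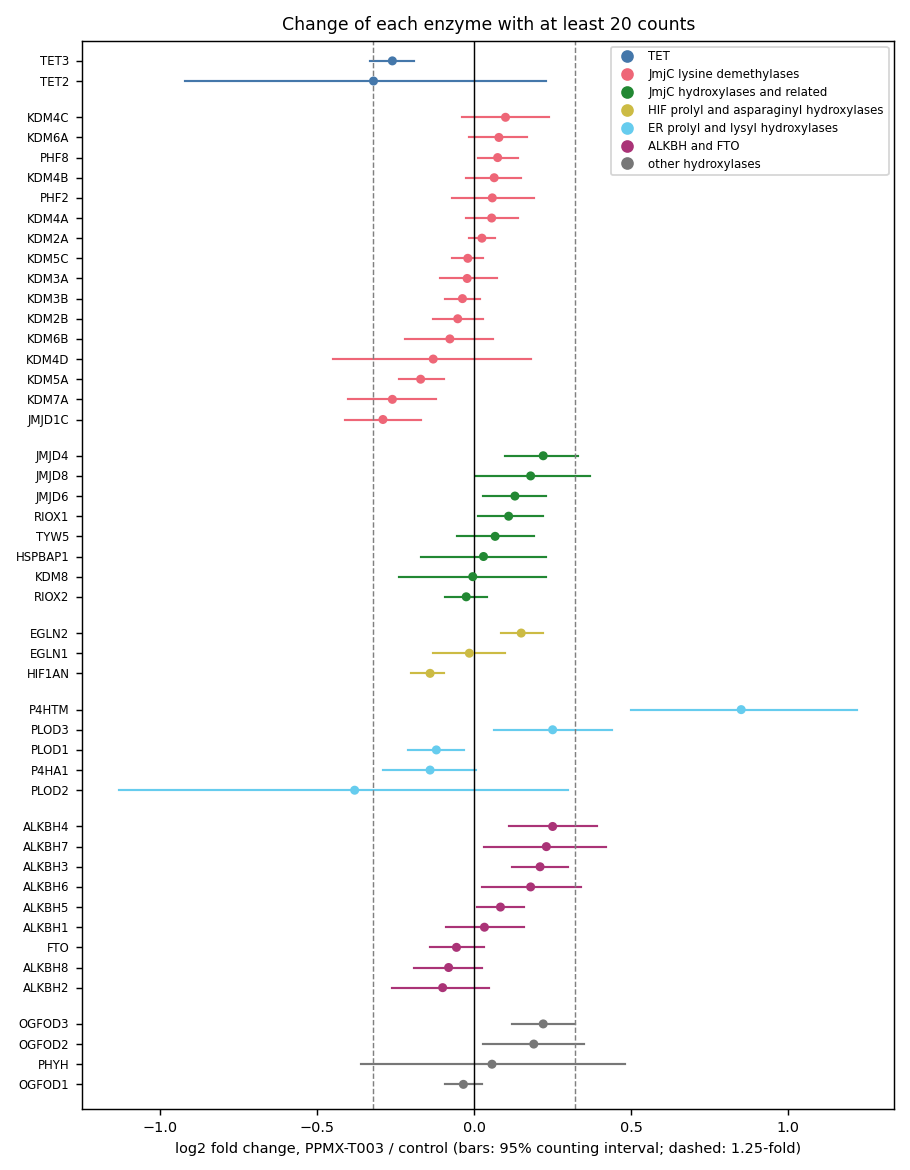
Log2 fold change of the 47 members with at least 20 counts, PPMX-T003 over control, grouped by role. Points are estimates, bars are 95% Clopper-Pearson intervals for counting error only and dashed lines mark a step of 0.32, which P4HTM passes upward and TET2 and PLOD2 pass downward with bars that cross 0.

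The TET enzymes oxidise methylcytosine in DNA, the step that starts active demethylation. TET3 was the TET enzyme of these cells. It had 3737 counts (79.8 CPM) in the control and 2886 counts (66.9 CPM) in the PPMX-T003 library. The change was -0.26 (-0.33 to -0.19), so TET3 was lower after exposure, and after P4HTM its interval kept farthest from 0 of all members. TET2 had 63 counts (1.35 CPM) and 46 counts (1.07 CPM), a change of -0.32 with an interval of -0.92 to 0.23 that holds 0. TET3 gave 98.3% of the TET reads in the control (97.9% to 98.7%, 95% Clopper-Pearson, counting error only) and 98.2% in the exposed library (97.7% to 98.7%), so the makeup of the TET reads was alike while their sum went from 81.2 to 68.1 CPM. TET3 lies at chr2:73986404-74108176 on the + strand in GENCODE 29, downstream of the printed RefSeq start, and TET1 had 6 counts in the exposed library and none in the control.

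The JmjC lysine demethylases were the largest group, with 17 genes, 16 of them compared. Together they had 972 CPM in the control and 963 CPM in the exposed library, and their median change was -0.021, which turned to 0.005 once a fit on GC content and length was removed. KDM2A, which binds unmethylated CpG islands through a zinc finger and removes methyl groups from histone lysines, was the most abundant of them by TPM, at 68 in both libraries. It had 9146 counts (195 CPM) in the control and 8582 (199 CPM) in the exposed library, and its change of 0.025 had an interval of -0.017 to 0.068. KDM2A had the most reads of any member, and with that fit removed it was at 0.055 with an interval above 0.

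Lower members of this group were JMJD1C, KDM7A and KDM5A, at -0.15, -0.10 and -0.037 with the trend on longest transcripts removed and at -0.13, -0.086 and -0.22 with that on median transcripts removed. With the trend on longest transcripts removed the interval of JMJD1C lay below 0, and those of KDM7A and KDM5A held 0. JMJD1C, a large nuclear protein of the KDM3 family whose demethylase activity is debated, had 1374 counts (29.4 CPM) in the control and 1035 (24 CPM) in the exposed library. Its change was -0.29 (-0.41 to -0.17). KDM7A, which reads a methylated histone tail with a PHD finger and demethylates a neighbouring lysine, had 953 counts (20.4 CPM) and 733 (17 CPM). The change of KDM7A was -0.26 (-0.40 to -0.12), close to that of JMJD1C, and neither reached 0.32 in size, although JMJD1C was at -0.36 on TPM. KDM5A, which removes methyl groups from histones at active promoters, had 3226 counts (68.9 CPM) and 2645 (61.3 CPM). It was lower by a smaller amount, -0.17 (-0.24 to -0.095).

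The relatives of these enzymes moved less. KDM5C, the X-linked paralog of KDM5A, had a TPM of 59 in the control and 56 in the exposed library and a change of -0.02 with an interval that holds 0. KDM5B, the paralog known from breast cancer, was at 0 counts. Within the KDM3 family KDM3A, which HIF induces in many cells, had 1962 counts and 1782 and a change of -0.022, and KDM3B had 5463 and 4910 and a change of -0.037, so JMJD1C was the KDM3 member that differed beyond counting error. Of the plant homeodomain proteins close to KDM7A, PHF8 had 4215 counts (90.1 CPM) and 4094 (94.9 CPM), with a change of 0.075 (0.013 to 0.14), and PHF2 had 1024 and 983 with 0.058. PHF8 was the 1 demethylase of the 16 whose interval lay above 0 before that fit, and 3 lay below. Over all genes these shares were 21.8% and 23.9%. PHF8 was at 0.0068 with the trend fitted on median transcripts, while its TPM was 35 and 34.

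The KDM4 and KDM6 demethylases act mainly on repressive histone marks. KDM4A, KDM4B, KDM4C and KDM4D had changes of 0.056, 0.064, 0.10 and -0.13, each with an interval that holds 0, on 2421, 2009, 850 and 186 control counts. KDM6A, the X-linked demethylase that opposes the Polycomb enzyme EZH2, had 1842 counts and 1794 and a change of 0.079 (-0.015 to 0.17), which was 0.16 with an interval above 0 after the fit on composition. Its paralog KDM6B, an inducible gene in immune cells, had 926 and 809 and a change of -0.077 (-0.22 to 0.06). KDM2B, which brings a Polycomb complex to CpG islands, had 2742 and 2439 counts and a change of -0.052, again not distinguishable from 0. With the trend fitted on median transcripts KDM6B was at -0.15 and KDM2B at -0.11.

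JmjC proteins that hydroxylate residues other than methylated histone lysines came next. All 8 were compared, and 4 had an interval above 0 and none below, beside 21.8% and 23.9% of all genes. Their median was 0.09, which was 0.054 after the fit on composition and 0 on TPM, at summed levels of 226 CPM in the control and 237 CPM in the exposed library. JMJD6, a nuclear lysyl hydroxylase of splicing factors, had the highest TPM of the group, 40 in the control and 42 in the exposed library. It had 1678 counts (35.9 CPM) and 1690 (39.2 CPM), with a change of 0.13 (0.029 to 0.23). JMJD4, which hydroxylates a translation termination factor, had 1201 counts (25.7 CPM) and 1287 (29.8 CPM). The change of JMJD4 was 0.22 (0.10 to 0.33), or 0.10 and within counting error after the fit. There JMJD6 was at 0.15 and TYW5 at 0.16, both with intervals above 0. RIOX1, a nucleolar histidyl hydroxylase of a ribosomal protein, had 1511 counts (32.3 CPM) and 1508 (35 CPM), and its change of 0.11 (0.011 to 0.22) went to 0.016 after the fit.

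JMJD8, a protein of the ER lumen, had 495 counts and 519 and a change of 0.18 whose lower bound was 0.0051, or 0.045 after the fit. The second ribosomal oxygenase, RIOX2, had more reads than RIOX1, 3772 in the control and 3418 in the exposed library, and a change of -0.025 with an interval that holds 0. TYW5, a hydroxylase of the wybutosine base of transfer RNA, had 1131 and 1092 counts and a change of 0.067. HSPBAP1, a binding partner of a small heat shock protein, had 445 and 419 and a change of 0.03. KDM8, now known as an arginyl hydroxylase, had 322 and 296 and a change of -0.0042, and the intervals of TYW5, HSPBAP1 and KDM8 all hold 0.

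The HIF hydroxylases mark HIF alpha subunits for destruction or block their coactivator binding while oxygen and iron suffice. EGLN2, a nuclear prolyl hydroxylase, had the highest TPM of all members, 77 in the control and 83 in the PPMX-T003 library. Its counts were 3375 (72.1 CPM) and 3461 (80.2 CPM), a change of 0.15 (0.085 to 0.22), which was 0.038 with the trend on GC content and length removed and -0.018 where that trend was fitted on median transcripts. EGLN1, the prolyl hydroxylase that sets HIF levels in most cells, had 1405 counts (30 CPM) and 1282 (29.7 CPM). The change of EGLN1 was -0.015 (-0.13 to 0.10), which holds 0, and it was 0.076 and 0.10 with the trend fitted in these ways removed. EGLN3, the paralog that HIF induces most, had 0 counts in both libraries. HIF1AN, the asparaginyl hydroxylase, had 7077 counts (151 CPM) in the control and 5901 (137 CPM) in the exposed library. HIF1AN was lower by this comparison, with -0.14 (-0.20 to -0.095), or -0.032 and -0.072 with these trends removed, so the order of the HIF hydroxylases depends on the treatment of composition.

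EGLN2 shares exons with a readthrough gene, RAB4B-EGLN2, which had 98 counts in the control and 12 in the exposed library. StringTie divides reads of shared exons by an estimate, so reads can pass from one listed gene to another. Summed, EGLN2 and RAB4B-EGLN2 had 3473 counts in the control and 3473 in the exposed library, a change of 0.12 (0.049 to 0.19). RAB4B itself, the upstream gene, had 310 and 351 counts, and the sum over the 3 genes changed by 0.13 (0.068 to 0.20), so EGLN2 was also higher with these genes joined, by less.

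Hydroxylases of the ER act on collagen and on related chains as these fold. PLOD1, a lysyl hydroxylase, was the most abundant by TPM, 34 in the control and 30 in the exposed library. It had 2135 counts (45.6 CPM) and 1807 (41.9 CPM), a change of -0.12 (-0.21 to -0.032). PLOD1 was at -0.21 with the trend on longest transcripts removed and at -0.25 with that on median transcripts removed. Its paralog PLOD3, which also adds sugars to hydroxylysine, had 449 counts (9.59 CPM) and 493 (11.4 CPM) and a change of 0.25 (0.065 to 0.44), or 0.15 and within counting error after the fit, so these paralogs differed in direction. PLOD2, the paralog that hypoxia induces, was near the detection limit with 43 counts (0.919 CPM) and 30 (0.695 CPM). The change of PLOD2 was -0.38 with an interval of -1.13 to 0.30, which does not tell it from 0. P4HA1, the catalytic subunit of collagen prolyl hydroxylase and a HIF target in many cells, had 837 and 700 counts and a change of -0.14 (-0.29 to 0.0059).

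P4HTM, a prolyl hydroxylase anchored in the ER membrane, had the largest change of the family. It had 104 counts (2.22 CPM) in the control and 174 counts (4.03 CPM) in the PPMX-T003 library. The change was 0.85 (0.50 to 1.22), and P4HTM was higher in the exposed library under every alternative that kept it. P4HTM lies at chr3:48989886-49007154 on the + strand and shares exons there with WDR6, a far more abundant gene with 5309 counts and 4973. The sum of both genes changed by 0.045 (-0.011 to 0.10), so the reads of P4HTM are few beside those of its neighbour, and whether the division of reads between them changed was not tested. With genes that share exons left out, no member was higher by 0.32 or more.

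ALKBH enzymes and FTO demethylate nucleic acids, and a few of them proteins. All 9 were compared, and 5 had an interval above 0 and none below, beside 21.8% and 23.9% of all genes. The median was 0.084, which was 0.044 after the fit on composition, 0.033 with genes that share exons left out and 0.031 on TPM, at summed levels of 264 CPM in the control and 277 CPM in the exposed library. ALKBH3, which repairs alkylated single-stranded DNA and RNA, had the highest TPM of the group, 56 in the control and 63 in the exposed library. Its counts were 1815 (38.8 CPM) and 1936 (44.9 CPM), and ALKBH3 was higher by 0.21 (0.12 to 0.30). ALKBH4, an actin demethylase, had 832 counts (17.8 CPM) and 912 (21.1 CPM), and its change was 0.25 (0.11 to 0.39). ALKBH7, a mitochondrial protein of programmed necrosis, had 413 counts (8.82 CPM) and 446 (10.3 CPM), and its change was 0.23 (0.032 to 0.42). After the fit on composition ALKBH3 and ALKBH4 still had intervals above 0, and ALKBH7, at 0.057, did not.

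The erasers of methyladenosine in messenger RNA were ALKBH5 and FTO. ALKBH5 had 2982 counts (63.7 CPM) and 2915 (67.6 CPM), a change of 0.084 whose interval of 0.01 to 0.16 lay just above 0. FTO had 2253 counts (48.1 CPM) and 1998 (46.3 CPM) and a change of -0.056 (-0.14 to 0.032). These intervals overlap, and after the fit on composition ALKBH5 was at 0.021 and FTO at 0.053. ALKBH2, which repairs alkylated double-stranded DNA, had 770 and 661 counts and a change of -0.10 with an interval that holds 0, which was -0.22 and outside 0 after the fit on composition. ALKBH1 had 1099 and 1037 counts and a change of 0.033, ALKBH8, an enzyme of the transfer RNA wobble base, had 1534 and 1337 with -0.081, and both intervals hold 0. ALKBH6, with no settled substrate, had 666 and 696 counts and a change of 0.18 (0.025 to 0.34), or 0.036 after the fit.

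Among the remaining hydroxylases OGFOD1, which hydroxylates a proline of a small ribosomal subunit protein, had the highest TPM, 53 in the control and 49 in the exposed library. Its counts were 4703 (100 CPM) and 4235 (98.2 CPM), a change of -0.034 with an interval of -0.094 to 0.026 that holds 0. OGFOD3, a membrane protein of unknown substrate, had 1626 counts (34.7 CPM) and 1748 (40.5 CPM). OGFOD3 was higher, at 0.22 (0.12 to 0.32), or 0.16 and 0.10 with the trend on longest or on median transcripts removed, and OGFOD2, with 612 counts (13.1 CPM) and 643 (14.9 CPM), was higher at 0.19 (0.027 to 0.35), or 0.066 and within counting error after the fit on composition. PHYH, the peroxisomal hydroxylase of phytanoyl-CoA, had 100 and 96 counts and a change of 0.057 that its interval of -0.36 to 0.48 does not tell from 0. ASPH and TMLHE, an ER aspartyl hydroxylase and the first enzyme of carnitine synthesis, were near or at 0 counts in both libraries.

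The direction of the members went with the composition of their transcripts, as it did over all genes. GC content and length were those of the longest coding transcript in GENCODE 29. Of the 15 members with an interval above 0, 11 had a GC content of at least 55%, none had one under 45%, and the exceptions in between were ALKBH3, ALKBH5, JMJD6 and PHF8. The median GC content was 60.5% for these 15 and 44.9% for the 6 with an interval below 0. Of the 44 members with at least 200 counts, 17 had at least 55% GC, of which 13 were above 0, with a median change of 0.18, beside 0.10 over all 2763 such genes. From 45% to 55% GC 8 members were above 0 and 7 below, with a median of 0.025 beside 0.012 over all genes. Under 45% GC 3 were above 0 and 9 below, with a median of -0.029 beside -0.09. Across the 44 members Pearson's r between GC content and change was 0.58 and Spearman's rho 0.61, and across 9926 genes these were 0.41 and 0.50. These are correlations across genes of the same pair of libraries, and genes are not independent replicates.

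Length was examined in the same way. A limit of 8500 bases was chosen after the values were seen, just under the length of JMJD1C, so the members' counts by length are a description that this choice shaped. Of the 6 members with at least 200 counts and a longest transcript of that length, HIF1AN (13011 bases), FTO (11766), TET3 (11388), KDM5A (10763), KDM7A (9272) and JMJD1C (8666), all 6 were below 0 and 5 had an interval below 0, with a median change of -0.21. Over all 663 genes of that length with at least 200 counts, 577 were below 0, 68.9% had an interval below 0 and the median was -0.16. Of the 38 shorter members PLOD1 was the 1 with an interval below 0, where 26.1% of 9263 shorter genes had one, and their median was 0.061 beside 0.0061. Most long transcripts were thus lower in the exposed library, TET3 and KDM5A among them, though 86 of the 663 were above 0 and 30 had an interval above 0, and what part RNA integrity or library preparation had in this was not tested.

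**Figure D3:**
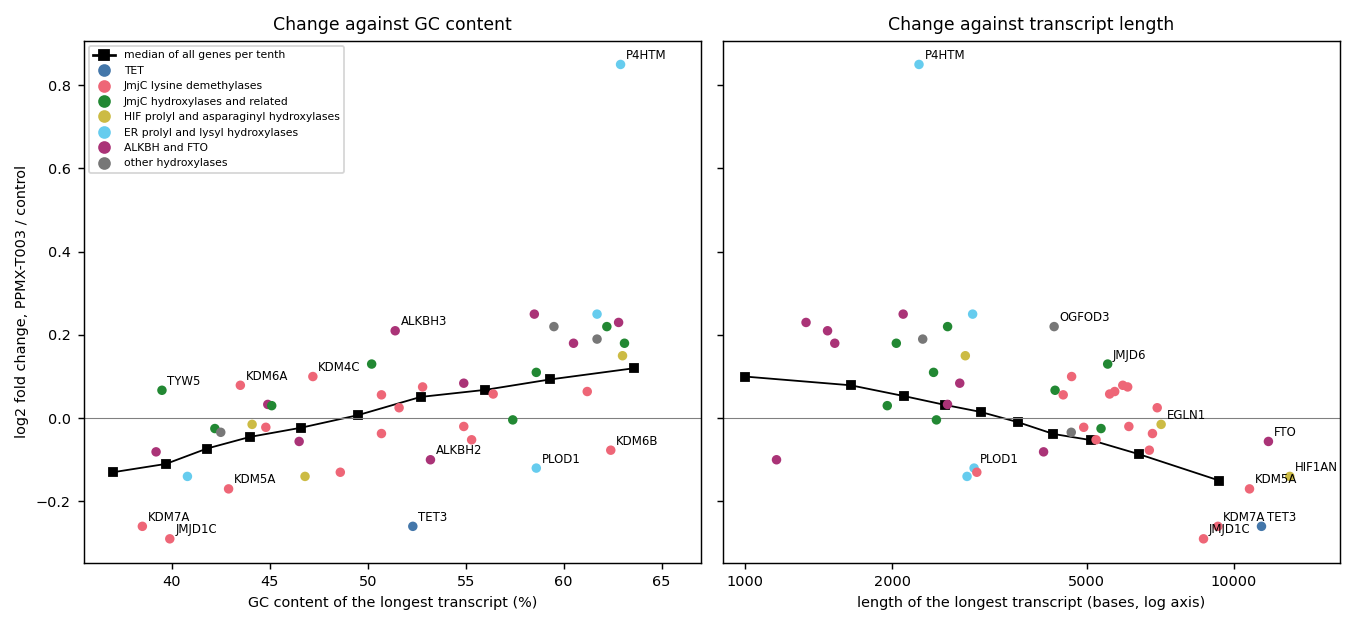
Log2 fold change of the 44 members with at least 200 counts against GC content in percent (left) and against the length in bases of the longest transcript on a log axis (right). Black squares are medians of all genes in 10 classes of equal size, which rise from -0.13 to 0.12 with GC content and fall from 0.10 to -0.15 with length.

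A robust regression of the change on GC content, its square and length was fitted to 9926 genes and removed. The standard deviation of the members' changes then went from 0.19 to 0.15 and that of all genes from 0.20 to 0.18, and the medians were 0.037 for the members and -0.009 for all genes. After this step the interval lay above 0 for 9 of 47 members, beside 2043 genes. Only 88.5% of the 13665 compared genes had the length and GC content that the fit needs, whereas all 53 members had them. Genes without them could not be counted on either side, so shares of 13665 would be too low beside those of the members. The 9 were KDM2A, PHF8, ALKBH3, ALKBH4, JMJD6, OGFOD3, TYW5, KDM6A and P4HTM, and 6 of them had been above 0 before. Below 0 were 4 members, beside 2562 genes. The 4 were ALKBH2, PLOD1, TET3 and JMJD1C, 3 of them also before. TET3 was then at -0.20, PLOD1 at -0.21, P4HTM at 0.72, ALKBH4 at 0.14 and ALKBH3 at 0.13. HIF1AN went to -0.032, KDM7A to -0.10, JMJD1C to -0.15, and KDM5A to -0.037, or to -0.22 with the trend fitted on median transcripts. Of the 6 members with an interval below 0 before this step, TET3 and PLOD1 were thus the lowest after it, while HIF1AN and KDM5A came close to 0 by the longest transcripts.

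By GENCODE 29, 8 members share exons with another gene of the same strand, namely KDM4A, KDM4C, JMJD6, P4HTM, OGFOD2, ALKBH6, EGLN2 and ALKBH3. All but KDM4A and KDM4C are among the 15 with an interval above 0. Leaving such genes out thus took the 15 to 9, left the 6 below 0 at 6 and turned the members' median from 0.03 to -0.02. Above 0 were then 9 of 39 members, beside 2389 of 11377 genes, and below 0 were 6 members, beside 2786 genes. Exons of 23 members overlap a gene of the other strand, and although the library kit keeps strand, the sources used here do not say whether the counting used it. Among the 15 with an interval above 0 there were 10 of these, such as ALKBH4 with ORAI2, PLOD3 with ZNHIT1 and OGFOD3 with HEXDC. Among the 6 below 0 there were 3, HIF1AN, KDM5A and JMJD1C, and among the 26 whose interval held 0 there were 8. Of the 15, PHF8 alone neither shared exons nor overlapped a gene of the other strand. The 9 left above 0 without shared exons thus all had such an overlap apart from PHF8. No share over all genes is given for this overlap.

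Other dioxygenases and JmjC proteins outside the 53, among them JARID2, which lacks the catalytic residues, were mostly silent. Of 14 examined, 8 had 0 counts in both libraries, among them BBOX1, P3H2 and P4HA3, and 6 were compared. None had an interval above 0 and 4 had one below, beside 21.8% and 23.9% of all genes. The median was -0.15, or -0.061 after the fit on composition. JMJD7, a lysyl hydroxylase of GTPases, had 239 counts in the control and 153 in the exposed library, a change of -0.52 (-0.83 to -0.23). The readthrough gene JMJD7-PLA2G4B, which shares its exons, went from 0 to 175 counts and PLA2G4B from 114 to 18. Summed over these 3 genes the locus had 353 and 346 counts, a change of 0.088 (-0.13 to 0.31), and whether the division of reads or the use of transcripts changed was not tested. RSBN1, a histone demethylase, had 2597 and 2131 counts and a change of -0.17 (-0.25 to -0.085), which was -0.033 after the fit on composition. Its paralog RSBN1L, with the highest TPM of these genes at 31 and 27, changed by -0.12 (-0.19 to -0.057), and by 0.0078 after that fit.

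The partners and substrates of the HIF hydroxylases were examined next. Of 10 genes of HIF subunits and the VHL ubiquitin ligase, 7 were compared, 1 had an interval above 0 and 4 below (all genes 21.8% and 23.9%), and the median was -0.11, or -0.071 after the fit on composition. VHL, the receptor for hydroxylated HIF, had 5680 counts (121 CPM) and 4642 (108 CPM), and its change was -0.17 (-0.23 to -0.12). The ligase scaffold CUL2 had 1303 counts and 1021 and a change of -0.23 (-0.35 to -0.12), which was -0.13 with the trend on longest transcripts removed and -0.088 with that on median transcripts removed. ELOB, the adaptor with the highest TPM of the list, 199 and 208, had a change of 0.14 (0.072 to 0.20) that turned to -0.044 after the fit on composition. HIF1A, the main substrate, had 6038 counts (129 CPM) and 5168 (120 CPM) and a change of -0.11, which the same fit took to 0.012, whereas EPAS1 and HIF3A, the other alpha subunits, and ARNT2 had 0 counts. HIF1A is thus the 1 alpha subunit with reads in NK92.

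Genes that HIF induces in many cells did not share a direction. Of 26, which include the 5 members EGLN3, KDM3A, P4HA1, P4HA2 and PLOD2, 20 were compared, 6 had an interval above 0 and 2 below, beside 21.8% and 23.9% of all genes, and the median was 0.019. NDRG1, a stress-induced gene, had 160 counts in the control and 209 in the exposed library, a change of 0.50 (0.20 to 0.81), but a TPM of 3 in both. SLC2A1, a glucose transporter, had 4874 and 5147 counts and a change of 0.20 (0.14 to 0.25). It was at 0.14 on TPM and at 0.093 with the trend fitted on median transcripts. The glycolytic enzymes ALDOA and ENO1 changed by 0.16 and 0.11, from 966 to 1080 CPM and from 3520 to 3790 CPM. They changed by 0.016 and 0.0068 after the fit on composition, and by 0.05 and 0.047 with the trend fitted on median transcripts. MXI1 and ANKRD37 were also above 0, at 0.28 (0.11 to 0.44) on 567 and 633 counts and 0.58 (0.012 to 1.21) on 42 and 59. The 2 below 0 were LDHA, from 98045 to 85970 counts at -0.072 (-0.086 to -0.059), and PFKFB4, from 110 to 74 counts at -0.44 (-0.90 to -0.016). CA9, ADM, BNIP3, ANGPTL4 and EGLN3, classical targets, had 0 counts in both libraries, so several of the usual readouts of HIF activity cannot be read in these cells.

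Enzymes that make or use 2-oxoglutarate, succinate and fumarate were all expressed. Of 22, 8 had an interval above 0 and 6 below (all genes 21.8% and 23.9%), and the median was 0.034, or 0.0035 after the fit on composition. Of the subunits of a mitochondrial isocitrate dehydrogenase IDH3A had 13879 and 12326 counts at -0.054 (-0.089 to -0.019), or 0.0013 after the fit on composition and a TPM of 207 in both libraries, and the others were higher, IDH3G with 1854 counts (39.6 CPM) and 2063 (47.8 CPM) at 0.27 (0.18 to 0.36), and IDH3B with 9030 and 9201 counts at 0.14 (0.10 to 0.19). PSAT1, the serine synthesis enzyme that releases 2-oxoglutarate, had 2909 counts (62.2 CPM) and 2249 (52.1 CPM) and was lower, at -0.25 (-0.33 to -0.17). SDHB, the iron-sulfur subunit of succinate dehydrogenase, had the highest TPM of the list, 338 and 344, and a change of 0.081 (0.033 to 0.13). After the fit on composition IDH3G was at 0.13, IDH3B at 0.041, PSAT1 at -0.23 and SDHB at 0.0018. With the trend fitted on median transcripts these genes were, in that order, at 0.17, 0.089, -0.20 and 0.075. No gene of this list reached a change of 0.32 in size.

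The proteins that hand iron or ascorbate to these enzymes gave mixed values. PCBP2, an iron chaperone, had 17498 counts (374 CPM) and 17719 (411 CPM) and a change of 0.14 (0.11 to 0.17). PCBP1, the chaperone that loads prolyl hydroxylases with iron, had the highest TPM, 446 and 440, and a change of 0.035 (0.0033 to 0.067), which was -0.063 after the fit on composition and -0.019 on TPM. SLC23A2, an ascorbate transporter, had 2681 counts (57.3 CPM) and 2095 (48.6 CPM) and was lower, at -0.24 (-0.32 to -0.16). The other ascorbate transporter of the list, SLC23A1, had 64 and 49 counts and a change of -0.26 (-0.84 to 0.29), which holds 0. Of these 6 genes 4 were compared, 2 were above 0 and 1 below by the interval (all genes 21.8% and 23.9%), and PCBP3 and PCBP4 had 0 counts.

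Enzymes that write the marks these dioxygenases erase were examined as a comparison. Of 19 lysine methyltransferases, all compared, 3 had an interval above 0 and 10 below, beside 21.8% and 23.9% of all genes, and the median was -0.13. KMT2C was lowest with 5894 counts (126 CPM) and 4006 (92.8 CPM), a change of -0.44 (-0.50 to -0.38), the 1 gene of this list lower by more than 0.32. KMT2D had 12864 counts and 9795 and a change of -0.28 (-0.31 to -0.24), and SETD2 had 6822 and 5241 and a change of -0.26 (-0.32 to -0.21). NSD2, with the highest TPM, 129 and 109, changed by -0.18 (-0.21 to -0.15). After the fit on composition KMT2C was at -0.29, KMT2D at -0.22 (-0.38 and -0.39 with the trend fitted on median transcripts), SETD2 at -0.15 and NSD2 at -0.084, and the median of this list was -0.073, where that of the JmjC demethylases was 0.005.

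The flavin-dependent demethylases use no iron for catalysis. Both had an interval below 0, beside 23.9% of all genes. KDM1A had 7218 and 6284 counts at -0.083 (-0.13 to -0.034) and KDM1B had 1745 and 1402 counts at -0.20 (-0.30 to -0.10). Among the DNA methylation genes, whose product the TET enzymes oxidise, 4 of 5 were compared, 1 had an interval above 0 and 2 below (all genes 21.8% and 23.9%). UHRF1, which guides maintenance methylation, had 7319 and 7410 counts and a change of 0.14 (0.088 to 0.18). It was at 0.076 on TPM and at 0.086 with the trend fitted on median transcripts. DNMT3B had 3251 and 2706 counts and a change of -0.15 (-0.22 to -0.073), and DNMT1, the maintenance enzyme, with a TPM of 207 and 194, had -0.042 (-0.069 to -0.015). DNMT1 was at -0.093 on TPM and at -0.11 with the trend fitted on median transcripts. DNMT3L had 0 counts.

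Of the 12 writers and readers of methyladenosine, the mark that FTO and ALKBH5 remove, 1 had an interval above 0 and 5 below (all genes 21.8% and 23.9%), and the median was -0.045, which the fit on composition took to 0.025. ZC3H13 had 10493 and 8468 counts at -0.19 (-0.23 to -0.15), RBM15 had 2408 and 1912 at -0.22 (-0.30 to -0.13), and YTHDC2 had 3298 and 2770 at -0.13 (-0.21 to -0.061). After the same fit ZC3H13 was at -0.07, YTHDC2 at -0.016 and RBM15 at -0.24. WTAP, with the highest TPM, 163 and 157, changed by 0.027 (-0.026 to 0.079). The partners of the collagen hydroxylases included P4HB, the disulfide isomerase subunit of prolyl hydroxylase, with 21123 and 20210 counts at 0.054 (0.026 to 0.081), which was -0.038 after the fit on composition and -0.0035 on TPM. COLGALT1, a galactosyltransferase of hydroxylysine, had 9774 and 9461 counts at 0.07 (0.029 to 0.11), which was -0.048 with the trend fitted on median transcripts, CRTAP had 465 and 413 at -0.054 (-0.25 to 0.14), and of these 6 genes 4 were compared, 2 had an interval above 0 and none below (all genes 21.8% and 23.9%).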

How the data were processed

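Reads of 2 libraries, control and PPMX-T003, were processed by the authors with Trimmomatic 0.38, HISAT2 2.2.0, StringTie 2.1.3b and edgeR 3.17 on hg38, according to the submitters' processing notes. The authors deposited, per gene, a read count written with commas, which were removed, and FPKM and TPM rounded to whole numbers, each treated as a score on deposited values. FPKM was not used further. No count model was fitted, since each condition has 1 library. Counts were scaled by TMM (trims of 30% on log ratios and 5% on mean level) and given as log2 CPM differences with a prior count of 2, with statsmodels 0.14.6, scipy 1.17.1, pandas 2.3.3 and numpy 2.4.6 under Python 3.11.15, after the functions had been tested on simulated counts. The 95% Clopper-Pearson interval on the exposed part of a gene's reads covers counting error only, neither dishes nor the division of shared reads. The filter was 20 counts over both libraries, which 13665 genes passed. The authors counted on another annotation than GENCODE 29, from which transcript length, GC content and shared exons were taken, for all 53 members and 88.5% of compared genes. Promoters came from RefSeq.

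The results of 2 cell type markers are not reported here. Members and lists were chosen with earlier results of these data known. Genes were named by a rule: the member with the highest TPM of each of 7 subgroups, every member changed by 0.32 or more, the 3 members per subgroup whose interval bound nearest 0 lay farthest from 0, of each of the 10 other lists (122 genes) the 3 genes farthest by that bound and the gene with the highest TPM, and readthrough genes holding a member's symbol. Genes named beside these were chosen for their role or after their values were seen. Alternatives took scaling by upper quartile, by library size or by the median of ratios, a prior count of 5 or 0.5, minimums of 1 and 200 counts, TPM with a pseudocount of 1, removal of the trend on GC content and length, and leaving out genes that share exons. Removal of that trend fitted on median transcripts was added after the data were seen.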

Additional observations from a re-analysis of the deposited data

How the results depend on the processing

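No paired analysis was possible because control and PPMX-T003 were 1 library each, and no library could be left out. No member was at least 2-fold changed except with genes of at least 1 count, where 3 were (low counts of P4HA2, TET1 and ASPH), and on TPM, where 1 was (PLOD2, at 1 and 0). The number changed by 0.32 or more was 3, and 6 where 1 count sufficed, 1 where 200 counts were needed, and 1 with the trend on GC content and length removed, by longest or by median transcripts. TET2 lay just past 0.32 and fell short of it with upper-quartile scaling, a prior count of 5, TPM or the trend removed in either way. On TPM JMJD1C passed it instead. The number with an interval outside 0 was 21, 13 with the trend on longest transcripts removed, 17 with that on median transcripts removed, and 15 with genes that share exons left out. Of the members outside 0, 71.4% lay above it, beside 47.8% of all genes outside 0. With the trend on longest transcripts removed these shares were 69.2% and 44.4%, and with genes that share exons left out 60% and 46.2%. They were 52.9% and 46.1% with the trend on median transcripts removed, an alternative chosen after seeing the data. The median of the members ran from -0.02, with genes that share exons left out, to 0.042, with upper-quartile scaling. Reversals were counted for the genes named by the rule only. Outside it HIF1A, IDH3A, NKG7, DLD, SDHA, SDHC, VIRMA and YTHDF3, each with an interval outside 0, changed sign with the trend on longest transcripts removed. IL2RB and DOT1L, also with intervals outside 0, changed sign with the trend on median transcripts removed, to -0.019 and -0.057. With the trend removed ELOB was at -0.044, P4HB at -0.038, PCBP1 at -0.063 and RSBN1L at 0.0078. With the trend on median transcripts removed COLGALT1 was at -0.048, EGLN2 at -0.018, ELOB at -0.0069, P4HB at -0.078 and PCBP1 at -0.014. On TPM P4HB was at -0.0035 and PCBP1 at -0.019. The cause was not tested. Of 593 values of 55 named genes under the alternatives, 521 moved by less than their interval, 61 by more without a called gene changing sign, and 11 reversed, those of 6 genes. Intervals were not recomputed for other prior counts, which do not enter them, or for TPM, which holds no counts. Depth limits EGLN3, KDM5B, TMLHE, P4HA2, TET1, ASPH, PLOD2 and TET2.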
